A study of Mus musculus with 6 samples.

Results

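The extracellular matrix genes examined here comprised 40 genes of mouse adipose stromal cells, chosen by name from the 56884 gene IDs of the expression tables. Earlier results of these data were known at that choice, so counts set beside those of all genes are a description. They fell into 15 matricellular and adhesive glycoproteins, 10 proteoglycans, 12 genes of the elastic fibre, and 3 genes of the basement membrane and of hyaluronan synthesis. Levels are TPM, a length-scaled share of all transcripts. A gene was tested when it reached 0.5 TPM in 3 or more of the 6 libraries, which 32 of the 40 genes did. RNA was sequenced from an immortalized line of stromal vascular fraction (SVF) cells of mouse subcutaneous white adipose tissue (scWAT), a fraction that holds adipocyte precursors. One set of cells overexpressed PPARγ2 K382Q, in which glutamine replaces the lysine to mimic acetylation, and the other overexpressed PPARγ2 K382R, in which arginine keeps the charge of the deacetylated lysine. PPARγ is the nuclear receptor that drives adipocyte formation, and the comparison asks how the acetylation state of this residue bears on early beige differentiation. Each mutant had 3 biological replicates, taken on day 2. Both groups carried an HA-tagged retroviral PPARγ2 on top of the endogenous gene, had been selected with puromycin, and were induced with isobutylmethylxanthine, indomethacin, dexamethasone, insulin, T3 and rosiglitazone, the last of which is itself a PPARγ agonist. Untransduced cells and cells with wild-type PPARγ2 were not analysed here, and a mutant and the transduced line that carries it cannot be told apart. The sources do not say whether replicates came from separate transductions, so the p-values measure the spread between these cultures, which may be technical.

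Matricellular proteins are secreted proteins that sit in the matrix and modulate how cells attach and signal rather than bearing load. Proteoglycans are core proteins with glycosaminoglycan chains, and their small leucine-rich members bind collagen fibrils and growth factors. Elastic fibres consist of elastin laid on a scaffold of fibrillin microfibrils, joined by fibulins and related glycoproteins. Preadipocytes make a fibroblast-like matrix, and its remodelling towards a basement membrane around each fat cell is a known feature of adipogenesis.

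The estimated total aligned length per library was 5.95 to 7.5 Gb in PPARγ2 K382Q-overexpressing cells and 6.53 to 8.15 Gb in PPARγ2 K382R-overexpressing cells. *Pparg* itself, whose reads can come from the endogenous gene and the transgene, had a TPM of 1200.3 ± 119 (SD, n = 3) in K382Q and 1611 ± 21.1 (SD, n = 3) in K382R cells. It passed as lower in K382Q cells (limma, log2 fold change −0.43, adjusted p = 9.77e-04). All 8 adipocyte markers examined were tested, and 3 were lower, 2 were higher and 3 passed in neither direction (limma, adjusted p under 0.05), where 36.9% of all genes tested were lower and 11.1% higher. Their summed TPM was 52131 to 56016 in K382Q and 43425 to 44673 in K382R cells, most of it from *Fabp4*. Without *Fabp4* the sum was 5724 to 5928 in K382Q and 6004 to 6132 in K382R cells, and *Adipoq* (−1.28), *Cebpa* (−0.81) and *Lpl* (−0.19) were the lower genes by log2 fold change. Of 8 markers of progenitors or fibroblasts, 4 were tested and all 4 were lower in K382Q cells. Their sum was 463 to 509 TPM in K382Q and 774 to 811 TPM in K382R cells, nearly all of it *Ly6a* (means of 467 and 767 TPM), with *Dpp4* at 0 in all 6 libraries. Mural markers summed to 10.9 to 11.9 TPM and to 21.0 to 23.1 TPM in the same order, a difference carried by *Acta2*, and 1 of their 4 tested genes was lower and 1 higher. Leukocyte markers summed to at most 5.18 TPM and endothelial markers to at most 2.28 TPM in any library, with *Adgre1*, *Cd3e* and *Emcn* at 0. The part of these cell type differences in the results that follow was not tested.

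The matrix genes were lower as a group in PPARγ2 K382Q-overexpressing cells. The 40 genes together gave 2692, 2710.1 and 2686 TPM in the K382Q libraries and 4461, 4425 and 4561 TPM in the K382R libraries, so that the K382Q sum was 60.1% of the K382R sum. No K382Q library reached any K382R library. With 3 libraries against 3, an exact permutation test cannot give a two-sided p below 0.1, and the sums are therefore given as a description. TPM is a share of all transcripts and not an absolute amount, and in bulk RNA fewer cells of a type cannot be told apart from less RNA per cell.

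By summed TPM the proteoglycans were lowest relative to K382R cells, which rested on *Bgn*. They gave 437, 429.8 and 431 TPM in K382Q against 929, 935 and 971 TPM in K382R libraries, or 45.8% of the K382R level. Without *Bgn* the sums were 236 ± 5.11 against 385 ± 3.38 TPM (SD, n = 3), or 61.3%. The elastic fibre genes stood at 58.1%, with 321 ± 5.28 against 553 ± 8.39 TPM (SD, n = 3). The matricellular genes were the most abundant class and stood at 63.8%, with 1623 ± 12.2 against 2545 ± 42.2 TPM (SD, n = 3). The nidogens and *Has2* stood at 72.6%, with 319 ± 3.2 against 439 ± 1.91 TPM (SD, n = 3). A few genes carried each sum, since the 3 most abundant members held 94.4% of the proteoglycan sum, 95.0% of the elastic fibre sum and 78.8% of the matricellular sum. *Sparc* alone gave 971 TPM in K382Q and 1186 TPM in K382R cells. *Fbln2* alone gave 170.5 and 340.3 TPM, and *Nid1* 317 and 435 TPM. The order of the classes therefore depends on single genes, and only the proteoglycan sum was recomputed without its most abundant gene.

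**Figure D1:**
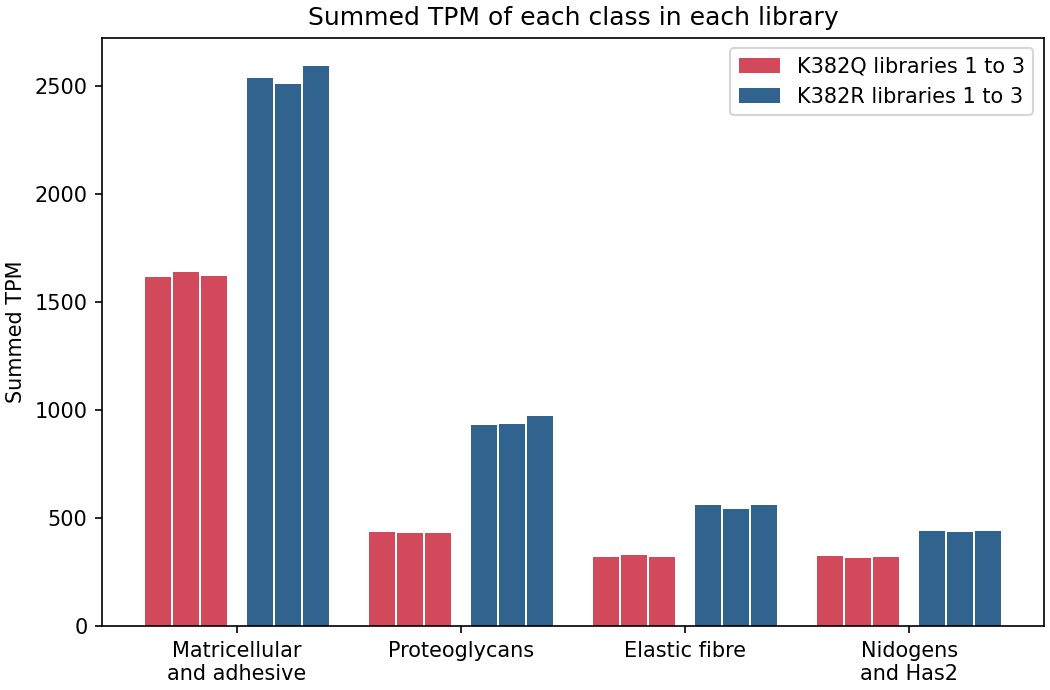
Bars show the summed TPM of each class of matrix genes in each of the 6 libraries, K382Q in red and K382R in blue. In all 4 classes each K382Q bar is lower than each K382R bar, and the proteoglycan bars differ most in proportion, with K382Q at 45.8% of K382R.

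Gene by gene, 26 of the 32 tested genes were lower in PPARγ2 K382Q-overexpressing cells at an adjusted p under 0.05 (limma on log2(TPM + 0.5), Benjamini-Hochberg over 15426 genes). Only *Matn2* was higher, and 5 genes passed in neither direction. Over all genes tested, the shares were 36.9% lower and 11.1% higher, so lower calls were common throughout the transcriptome. A fall of more than 2-fold was seen for 10 of the 32 genes, against 2.61% of all genes tested. These were *Postn*, *Thbs2*, *Thbs1*, *Tnc*, *Spp1*, *Dcn*, *Bgn*, *Ogn*, *Efemp1* and *Has2*. None of the 32 was higher by more than 2-fold, against 1.27% of all genes tested. In 28 genes every K382Q library lay below every K382R library, an arrangement found in 42.8% of all genes tested, and only *Fbln5* overlapped between the mutants.

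Over the 32 genes the log2 fold changes had a median of −0.58, beside −0.14 for all genes tested. With a median-ratio scaling that brings the median of all genes to 0.00, the calls over all genes moved from 5698 lower and 1717 higher to 3153 lower and 3057 higher. Under that scaling 23 of the 32 matrix genes were still lower, 2 were higher and the median was −0.44. The filter itself favours genes that are high in one group. The minimum was met in all 6 libraries by 29 of the 32 genes, while *Thbs3* and *Has2* met it in 5 libraries and *Smoc2* in 4.

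**Figure D2:**
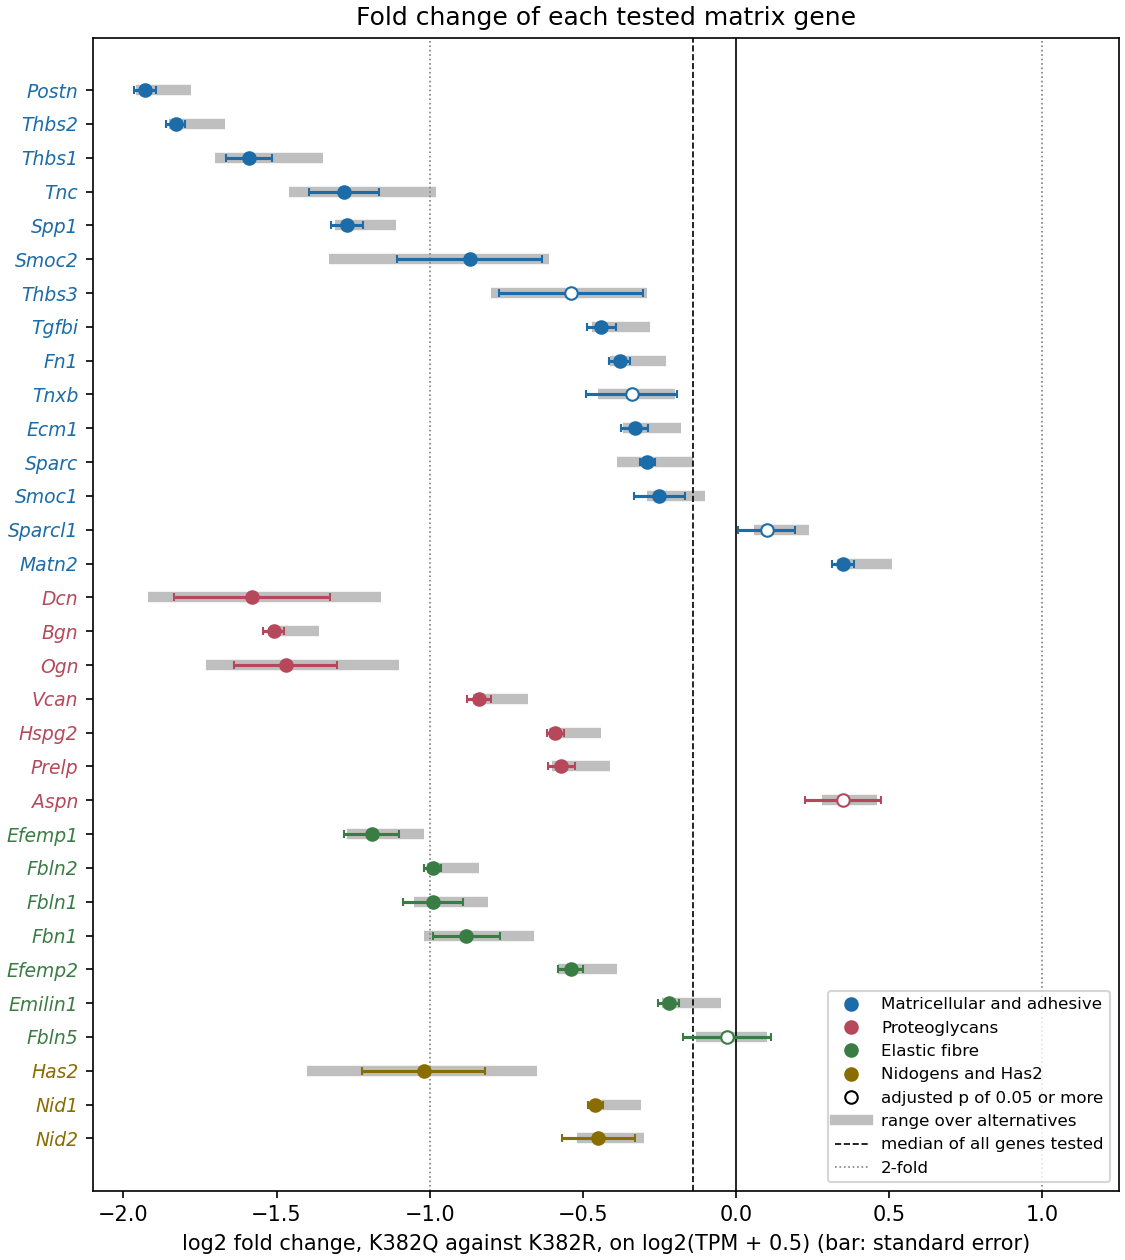
Points show the log2 fold change of each tested matrix gene, K382Q against K382R, on the log2(TPM + 0.5) scale with its standard error, and grey bars show the range over 16 alternative analyses. The genes spread from −1.93 for *Postn* to 0.35 for *Matn2* and *Aspn*, and most lie to the left of the median of all genes tested at −0.14.

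The genes *Thbs2*, *Postn* and *Bgn* combined a high level with a fall of more than 2-fold, and their promoters are printed as those of the 3 most abundant genes beyond 2-fold. Each is the 250 bases before the start of the canonical transcript in the GENCODE annotation of GRCm39, 5′ to 3′ on the strand of the gene. That start need not equal the gene bounds of the expression tables, which are the coordinates given for genes here. *Thbs2* lies on the minus strand at chr17:14914529-14914778, *Postn* on the plus strand at chr3:54268251-54268500, and *Bgn* on the plus strand at chrX:72526958-72527207. Capitals mark matches on either strand. The motifs searched were TATAAA, known as the TATA box of core promoters, and GGGCGG, the GC box bound by Sp1. The others were CCAAT, the box of that name bound by NF-Y, and GGAATG, which TEAD factors of the Hippo pathway bind. The last was TGANTCA, the element of AP-1.
Thbs2: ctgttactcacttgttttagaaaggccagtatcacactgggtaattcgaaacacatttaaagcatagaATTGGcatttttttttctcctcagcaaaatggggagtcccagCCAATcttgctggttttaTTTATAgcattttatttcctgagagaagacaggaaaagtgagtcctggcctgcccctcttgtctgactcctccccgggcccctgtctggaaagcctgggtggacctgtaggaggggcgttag
Postn: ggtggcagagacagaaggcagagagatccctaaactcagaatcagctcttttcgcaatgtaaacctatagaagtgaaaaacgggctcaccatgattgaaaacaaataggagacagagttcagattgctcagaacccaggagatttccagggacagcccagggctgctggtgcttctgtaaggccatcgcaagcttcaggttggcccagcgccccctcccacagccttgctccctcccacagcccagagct
Bgn: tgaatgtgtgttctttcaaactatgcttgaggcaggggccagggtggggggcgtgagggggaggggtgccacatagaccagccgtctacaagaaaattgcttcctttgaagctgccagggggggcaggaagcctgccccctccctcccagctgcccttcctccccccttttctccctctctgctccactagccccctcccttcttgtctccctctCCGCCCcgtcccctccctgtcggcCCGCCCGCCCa

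*Thbs2* had a TATA match and a pair of CCAAT boxes, *Bgn* had GC boxes close to its start, and *Postn* had none of these motifs in this window. None of the 5 motifs was found in all 32 tested promoters. A GC box was found in 13 of the 32 tested genes and in 36.3% of 21770 promoters of the same length. A CCAAT box was found in 12 of the 32 and in 36.5% of all promoters, and a TATA match in 5 of the 32 and in 11.9% of all promoters. The TEAD motif was present in *Dcn* and *Spp1* among the 10 genes that fell more than 2-fold, in 3 of the 32, and in 12.1% of all promoters. The AP-1 motif was present in *Thbs1* and *Efemp1*, the only matches among the 32, and in 6.17% of all promoters. A match describes the letters of the window and is neither a binding site nor a cause.

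Among the matricellular genes, 11 of 15 were lower, 1 was higher and 3 passed in neither direction. The largest log2 falls were those of *Postn*, *Thbs2* and *Thbs1*. *Postn* (ENSMUSG00000027750.17, chr3:54268530-54298458) encodes periostin, an adhesive protein of collagen-rich connective tissue that binds integrins. It had 143, 139.7 and 142 TPM in the K382Q libraries and 541, 522 and 567 TPM in the K382R libraries. The groups were far apart, with a log2 fold change of −1.93 (SE 0.0355, adjusted p = 1.99e-07), which is 3.82-fold lower in K382Q cells. It was the largest change among the 32 genes and the 40th lowest log2 fold change of all genes tested.

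*Thbs2* (ENSMUSG00000023885.10, chr17:14885762-14914497) encodes thrombospondin-2, a secreted inhibitor of angiogenesis that also affects collagen fibril assembly. Its TPM was 69.7, 69.3 and 69.4 in K382Q and 248, 241 and 254 in K382R libraries. The spread within each group was small beside the difference, which was −1.83 on the log2 scale (SE 0.0308, adjusted p = 1.99e-07), or 3.55-fold. *Thbs1* (ENSMUSG00000040152.9, chr2:117942357-117957614), whose product can activate latent TGF-β, was much less abundant. It had 3.29, 3.29 and 3.38 TPM against 10.7, 11.0 and 11.3 TPM and fell by 1.59 on the log2 scale (SE 0.0736, adjusted p = 3.48e-06). *Thbs3*, from the same family, had 0.914, 0.832 and 0.318 TPM against 1.11, 1.24 and 1.18 TPM. Its groups did not overlap, but the difference of −0.54 did not pass (SE 0.235, adjusted p = 0.0962), and its exons share 7.11% of their bases with *Mtx1* and the sources do not say whether counting used strand.

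*Tnc* and *Spp1* were also more than 2-fold lower. *Tnc* (chr4:63878022-63965252), the large hexameric glycoprotein tenascin-C of wounds and developing tissue, had 1.7, 1.52 and 1.55 TPM in K382Q and 4.82, 4.14 and 4.75 TPM in K382R libraries. The log2 fold change was −1.28 (SE 0.113, adjusted p = 7.1e-05), and with FPKM in place of TPM it was −0.98, just short of 2-fold. *Spp1* (chr5:104582984-104588916) encodes osteopontin, a secreted phosphoprotein that binds integrins and CD44. It had 25.4, 24.1 and 25.9 TPM against 61.8, 58.1 and 64.3 TPM, with no overlap. Its log2 fold change was −1.27 (SE 0.0509, adjusted p = 1.86e-06), close to that of *Tnc* at a higher level of expression. *Tnxb*, a tenascin associated with collagen fibrils, had means of 0.971 and 1.36 TPM and did not pass (log2 fold change −0.34, adjusted p = 0.0921), except without an intensity trend (adjusted p = 0.0134).

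*Sparc* and *Fn1* were among the most abundant genes and differed less. *Sparc* (ENSMUSG00000018593.14, chr11:55285326-55314009), a collagen-binding protein known to restrain adipogenesis, had the highest level of the 40 genes. Its TPM was 965, 976 and 971 in K382Q and 1183, 1185 and 1188 in K382R libraries. The replicates were so close that a log2 fold change of −0.29 (SE 0.0242, adjusted p = 5.41e-05) passed, and after median-ratio scaling the change was −0.14 (adjusted p = 0.00653). *Fn1* (chr1:71624679-71692359), fibronectin, the adhesive glycoprotein on which other matrix proteins assemble, had 187, 200.3 and 191 TPM against 248, 250 and 256 TPM. It did not overlap between the mutants and had a log2 fold change of −0.38 (SE 0.034, adjusted p = 7.27e-05). *Sparcl1*, a relative of *Sparc*, was the reverse in sign, with 4.08, 4.0 and 4.48 TPM against 3.92, 3.85 and 3.8 TPM, and did not pass (0.10, SE 0.0918, adjusted p = 0.391).

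Of the remaining matricellular genes, 4 were lower and 1 was higher. *Tgfbi*, an integrin-binding relative of periostin, was lower in K382Q cells at 23.7 against 32.3 TPM (log2 fold change −0.44, adjusted p = 1.84e-04). *Ecm1*, a secreted glycoprotein, was lower at 106 against 134 TPM (−0.33, adjusted p = 5.98e-04). *Matn2*, a matrilin that bridges filamentous networks, was the one gene called higher. It had 76.5, 74.4 and 76.4 TPM in K382Q and 57.5, 61.1 and 59.6 TPM in K382R libraries, and its log2 fold change was 0.35 (SE 0.036, adjusted p = 1.55e-04).

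The SMOC genes encode calcium-binding proteins related to SPARC, and both of their calls were fragile. *Smoc1* was lower at 6.19 against 7.48 TPM (−0.25, adjusted p = 0.0379), but the call was lost after median-ratio scaling (−0.11, adjusted p = 0.341) and without any one of 5 of the 6 libraries, K382R replicate 2 being the exception. *Smoc2* had 0.244, 0.446 and 0.501 TPM against 1.33, 0.728 and 1.41 TPM (−0.87, SE 0.236, adjusted p = 0.0176). Its call was lost without K382Q replicate 1 (adjusted p = 0.0508), K382R replicate 1 (adjusted p = 0.0622) or K382R replicate 3 (adjusted p = 0.0656). Its mean read depth per base was only 0.216 to 0.508 in K382Q and 0.853 to 1.54 in K382R libraries.

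**Figure D3:**
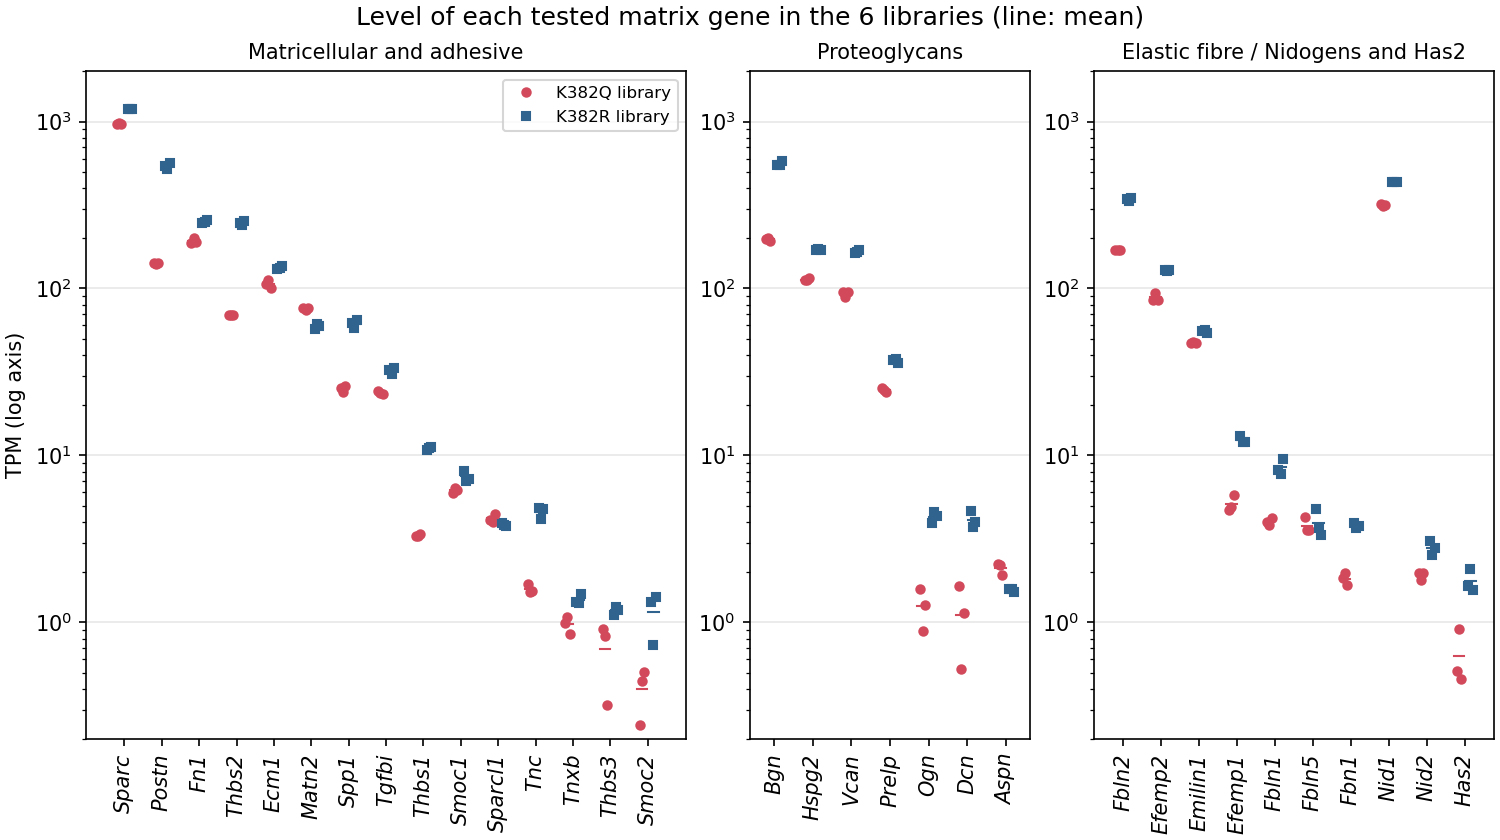
Points show the TPM of each tested matrix gene in each library on a log axis, K382Q as red circles and K382R as blue squares, with lines at the group means. *Sparc* is at the top with means of 971 and 1186, and the red points of *Postn*, *Thbs2* and *Bgn* lie well below the blue ones with little spread.

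Among the proteoglycans, 7 of 10 were tested, 6 were lower and 1 did not pass. Of the 5 tested small leucine-rich members, which bind collagen and other matrix proteins, *Bgn*, *Dcn* and *Ogn* fell more than 2-fold, *Prelp* fell less and *Aspn* did not pass. *Bgn* (ENSMUSG00000031375.18, chrX:72527208-72539539) was the most abundant proteoglycan gene, with 199, 199.8 and 192 TPM in K382Q and 548, 550.3 and 583 TPM in K382R libraries. Every K382R library was far above every K382Q library, and the log2 fold change was −1.51 (SE 0.0343, adjusted p = 2.51e-07), or 2.84-fold.

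*Dcn* (chr10:97315471-97354005), decorin, the closest relative of biglycan, was expressed at a far lower level per length. It had 1.64, 0.527 and 1.14 TPM against 4.64, 3.7 and 3.99 TPM, with a log2 fold change of −1.58 (SE 0.256, adjusted p = 0.0015). The K382Q libraries varied widely, yet all lay below the K382R libraries. *Ogn* (chr13:49761522-49777977), osteoglycin, had 1.59, 0.889 and 1.27 TPM against 3.95, 4.6 and 4.32 TPM, with a log2 fold change of −1.47 (SE 0.168, adjusted p = 2.54e-04). *Ogn* shares 18.8% of its exonic bases with *Cenpp* on the opposite strand, and *Cenpp* had 23.9 against 21.3 TPM (log2 fold change 0.16, adjusted p = 0.0771).

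*Aspn*, asporin, a leucine-rich member that also overlaps *Cenpp* (9.12% of its exonic bases), went the other way. It had 2.24, 2.21 and 1.93 TPM in K382Q against 1.58, 1.59 and 1.52 TPM in K382R libraries, and its log2 fold change of 0.35 missed the threshold (SE 0.124, adjusted p = 0.0509). After median-ratio scaling it passed as higher (0.46, adjusted p = 0.0182). *Prelp*, which anchors basement membranes to collagen, was lower at 24.7 ± 0.722 against 37.0 ± 0.923 TPM (SD, n = 3; −0.57, adjusted p = 3.35e-05).

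The large proteoglycans were abundant and moderately lower. *Vcan* (chr13:89803431-89890628), versican, a hyaluronan-binding chondroitin sulfate proteoglycan, had 95.6, 88.3 and 94.7 TPM in K382Q and 163, 165 and 171 TPM in K382R libraries. Its log2 fold change was −0.84 (SE 0.0396, adjusted p = 3.77e-06). *Hspg2* (chr4:137196080-137297941), perlecan, the heparan sulfate proteoglycan of basement membranes, had 112, 113 and 116 TPM against 170.1, 172 and 171 TPM. Its log2 fold change was −0.59 (SE 0.0284, adjusted p = 3.98e-06), and the groups of both genes were widely separated.

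Of the 12 elastic fibre genes, 7 were tested, 6 were lower and 1 did not pass. The genes of elastin and of most microfibril proteins were at or near 0, so that the class consisted mainly of fibulins. *Fbln2* (chr6:91189437-91249522), fibulin-2, which joins fibrillin to other matrix proteins, was the most abundant. Its TPM was 170.3, 171 and 169.9 in K382Q and 343, 332 and 346 in K382R libraries, with a log2 fold change of −0.99 (SE 0.0278, adjusted p = 3.99e-07). *Fbln1* (chr15:85090150-85170736), fibulin-1, had the same log2 fold change at a much lower level, with 3.99, 3.81 and 4.24 TPM against 8.18, 7.76 and 9.48 TPM (SE 0.0981, adjusted p = 1.27e-04). Both lay just under the 2-fold limit with the pseudocount of 0.5, and *Fbln1* passed it with a pseudocount of 0.1 (−1.05). The libraries of the mutants did not overlap for either gene.

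*Efemp1* (chr11:28803204-28876743), fibulin-3, was the one elastic fibre gene beyond 2-fold. It had 4.71, 4.94 and 5.78 TPM against 13.0, 12.0 and 12.0 TPM, with a log2 fold change of −1.19 (SE 0.091, adjusted p = 3.47e-05). *Efemp2* (chr19:5523982-5532545), fibulin-4, which brings lysyl oxidase to elastin, had 85.8, 93.8 and 85.5 TPM against 129, 128 and 129 TPM (−0.54, SE 0.0416, adjusted p = 3.61e-05). Its exons share 3.18% of their bases with *Mus81* on the opposite strand, at 34.4 against 28.4 TPM. *Fbln5*, fibulin-5, which is needed for elastic fibre assembly, was the only tested gene whose groups overlapped. It had 4.25, 3.59 and 3.56 TPM against 4.79, 3.65 and 3.34 TPM (−0.03, SE 0.143, adjusted p = 0.876).

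*Fbn1*, fibrillin-1, the backbone of the microfibril, was expressed weakly and was lower in K382Q cells, with 1.83 ± 0.156 against 3.8 ± 0.133 TPM (SD, n = 3; −0.88, adjusted p = 3.97e-04). *Emilin1* (chr5:31070746-31078621), a glycoprotein at the surface of elastin, had 47.3, 47.8 and 47.2 TPM against 55.6, 56.3 and 54.4 TPM. Its log2 fold change was small at −0.22 (SE 0.0335, adjusted p = 0.00104), and the call was lost after median-ratio scaling (−0.07, adjusted p = 0.141).

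The nidogens link laminin to collagen IV in basement membranes, and *Has2* encodes an enzyme that makes hyaluronan. All 3 genes were lower in K382Q cells. *Nid1* (chr13:13612136-13686854) was abundant, with 319.7, 313 and 317 TPM in K382Q and 436, 433 and 436 TPM in K382R libraries (log2 fold change −0.46, SE 0.0247, adjusted p = 6.31e-06). *Nid2* had 1.97, 1.8 and 1.97 TPM against 3.06, 2.53 and 2.77 TPM (−0.45, SE 0.119, adjusted p = 0.0166), and 11.8% of its exonic bases overlap *Rtraf*, at 102 and 103 TPM. This call was lost without K382R replicate 1 (adjusted p = 0.062) or K382Q replicate 2 (adjusted p = 0.05). It was also lost with no filter on low values and after median-ratio scaling (−0.32, adjusted p = 0.0636).

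*Has2* (chr15:56529023-56557935) was near the minimum level. It had 0.512, 0.909 and 0.456 TPM in K382Q and 1.65, 2.08 and 1.57 TPM in K382R libraries, and the groups did not overlap. The log2 fold change was −1.02 (SE 0.201, adjusted p = 0.00402). The gene was called lower under all 16 alternatives, but the fall exceeded 2-fold under only 9 of them, and the log2 fold change was −0.92 after median-ratio scaling and −0.92 without K382Q replicate 3. Its exons share 8.03% of their bases with the antisense gene *Has2os*, which had 0.597 against 1.11 TPM (−0.40, adjusted p = 0.454).

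The 8 untested genes were at 0 or at low levels in both groups. *Lum*, lumican, and *Mfap4*, a microfibril-associated glycoprotein, were listed at 0 in all 6 libraries. *Fmod*, fibromodulin, had means of 0.0561 and 0.172 TPM and *Podn*, podocan, had 0.414 and 0.409 TPM in K382Q and K382R cells. *Eln*, elastin, had means of 0.0911 and 0.0413 TPM. Of the microfibril genes, *Mfap2* was at 0.0626 and 0.0259, *Mfap5* at 0.0295 and 0.156, and *Fbn2* at 0.0112 and 0.0298 TPM. *Eln* was higher in every K382Q library (0.0961, 0.0966 and 0.0805 against 0.0238, 0.0457 and 0.0543 TPM). *Fmod* was lower in every K382Q library (0.0706, 0.0612 and 0.0363 against 0.244, 0.176 and 0.0939 TPM). None of the 8 met the minimum in 3 or more libraries, and *Podn* met it in 2. With no filter on low values 38 of the 40 genes were tested, and none of the 8 genes named here was called.

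Genes of like level differed in how much they changed. *Sparc*, the most abundant with a rank of 126 among all genes tested, was lower by 1.22-fold, while *Postn* and *Bgn*, with ranks of 456 and 403, were lower by 3.82-fold and 2.84-fold. At the other end *Dcn* and *Ogn*, at a few TPM, fell by more than 2-fold, and *Fbln5* and *Sparcl1*, also at a few TPM, did not pass. *Nid1* had nearly the same level rank as *Bgn*, 408, and was lower by 1.37-fold.

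**Figure D4:**
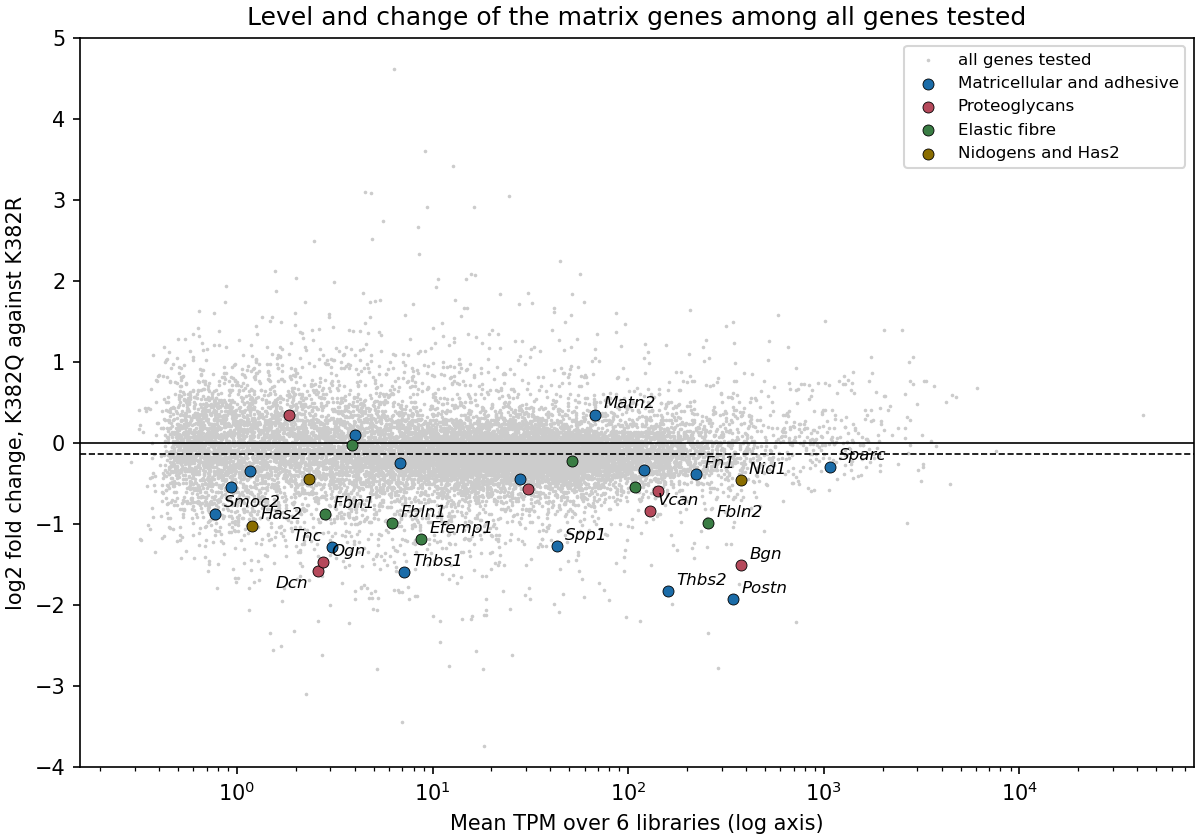
Points show the log2 fold change of each gene, K382Q against K382R, against its mean TPM over 6 libraries on a log axis, with all 15426 genes tested in grey. The matrix genes in colour lie mostly below the dashed median at −0.14 at every level, and *Postn*, *Thbs2* and *Bgn* lie far below it.

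Genes that work with these proteins were examined in 5 further lists, whose counts stand beside the 36.9% lower and 11.1% higher of all genes tested. Of 20 other matricellular genes, 9 were tested, of which 7 were lower and 1 was higher. *Ccn2*, the connective tissue growth factor gene, had 6.86 ± 0.493 against 44.3 ± 3.09 TPM (SD, n = 3; log2 fold change −2.61, adjusted p = 4.28e-07), a larger difference than in any of the 32 genes. *Igfbp7* (−1.74), *Fstl1* (−1.58) and *Ccn1* (−1.42) were also more than 2-fold lower. *Svep1*, a large adhesive protein, was the one called higher (0.28, adjusted p = 0.0183), and the call was lost without K382Q replicate 1 (adjusted p = 0.0537), K382Q replicate 3 (0.0523), K382R replicate 1 (0.0531) or K382R replicate 2 (0.0624).

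Of 32 other proteoglycan core proteins and link proteins, 17 were tested, with 9 lower and 2 higher and a median log2 fold change of −0.40. *Srpx2*, a secreted chondroitin sulfate proteoglycan, was lower at 5.55 against 18.8 TPM (−1.68, adjusted p = 3.01e-06). *Bcan*, brevican, at 0.218 against 1.06 TPM, met the minimum in the 3 K382R libraries alone. Its log2 fold change was −1.11 (adjusted p = 0.0037, and adjusted p = 0.00848 with no filter on low values). *Bcan* was not beyond 2-fold with a pseudocount of 1 (−0.75) or without K382Q replicate 3 (−1.0). The syndecans, transmembrane heparan sulfate proteoglycans, were divided. *Sdc1* was lower at 54.3 against 109 TPM and *Sdc2* at 17.7 against 26.9 TPM, while *Sdc4* was higher at 150.4 against 113 TPM and *Sdc3* at 20.9 against 17.1 TPM.

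The enzymes that build glycosaminoglycan chains were mostly lower by a small amount. Of 35 listed genes, 33 were tested, 23 were lower and 0 were higher, with a median log2 fold change of −0.40, and *Hs3st1*, a heparan sulfate sulfotransferase, was the only one beyond 2-fold (0.415 against 1.45 TPM, −1.10). *Hs3st1* met the TPM minimum in the 3 K382R libraries and in 1 K382Q library, and it was under 2-fold with a pseudocount of 1 (−0.80), with FPKM (−0.67) and without K382Q replicate 3 (−0.98). Among 13 tested genes of elastic fibre assembly, 7 were lower and 1 was higher. The lower count was 5 with median-ratio scaling, under which 3153 of all 15426 genes tested were lower. The higher one was *Mfap1a* (0.18, adjusted p = 0.0442), listed for its name, although its product is known as a nuclear splicing protein. Its call was lost without any one of the libraries other than K382R replicate 1 (adjusted p 0.0566 to 0.128). It was also lost with the replicate number as a block (adjusted p = 0.0871), with no filter on low values (0.106) and without an intensity trend (0.0814). *Ltbp1*, which holds latent TGF-β in the microfibril, had 5.38 against 25.9 TPM (−2.17, adjusted p = 8.51e-07). *Loxl1*, the lysyl oxidase of elastin, had 45.4 against 128 TPM (−1.48, adjusted p = 2.93e-07), while *Lox* did not pass at 80.9 against 85.3 TPM (−0.08, adjusted p = 0.119).

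Hyaluronan genes moved in both directions. Of 12 listed, 7 were tested, 5 were lower and 1 was higher. *Cd44*, the main hyaluronan receptor, was lower at 12.7 against 26.8 TPM (−1.05, adjusted p = 1.87e-05). *Hyal1*, a hyaluronidase of lysosomes, was higher at 8.9 against 3.91 TPM (1.09, adjusted p = 9e-05).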

How the data were processed

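RNA sequencing data of 6 libraries were used, 3 of PPARγ2 K382Q- and 3 of PPARγ2 K382R-overexpressing cells. Per the submitters' processing notes, the authors used HISAT2 and StringTie with the GRCm39 build. The annotation release and the handling of strand were not given in the sources used here. The deposited signal is the mean coverage of a gene in reads per base. The ratio of that coverage to the deposited FPKM took its most common value in 1950 to 2007 genes per library and differed in other genes. The deposited TPM values add up to a common total per library. Read counts were not analysed here.

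Repeated gene IDs, 3 to 5 entries per library, were summed. The most common ratio of coverage to FPKM was taken as an estimate of the aligned length. It was 5.96, 7.5 and 5.95 Gb in K382Q and 7.79, 8.15 and 6.53 Gb in K382R libraries. No counting interval is given, and precision is that of the 3 replicates. Among genes at 0.5 TPM or more in both libraries of a pair, 0 had exactly the same TPM in any pair. The test was limma 3.58.1 (R 4.3.3) with a variance trend over intensity, applied to log2(TPM + 0.5) of the 15426 genes that reached 0.5 TPM in 3 or more libraries. P-values were adjusted by the Benjamini-Hochberg method. The pseudocount of 0.5 understates the fold changes of low genes. A gene was called at an adjusted p under 0.05, with a second rule of more than 2-fold, and the test was tried on simulated data. Other steps used Python 3.11.15, pandas 2.3.3, numpy 2.4.6 and matplotlib 3.10.9. Promoters and exon overlaps came from the GRCm39 genome and its GENCODE annotation.

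The members and gene lists were chosen with earlier results of these data known. Every tested gene is named. Values in every library are given for genes beyond 2-fold, and in each class for the 3 most abundant and the 3 with the largest changes. From the other lists, genes beyond 2-fold are named, at most 5 a list, and a few more were chosen after their values were seen. Alternatives changed the pseudocount (1 or 0.1), the filter (none, or 1 TPM), the unit (FPKM), the scaling (by median ratio or by quantiles), the variance model (no trend, or array weights), the design (a replicate block, or leaving out any 1 library) and the fold limit (1.5).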

Additional observations from a re-analysis of the deposited data

How the results depend on the processing

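Of 509 refits of single matrix genes over 16 alternatives, 478 kept the direction and the call, and 25 of the 32 genes did so throughout. *Fbln5*, which was not called, changed sign, at 0.04 with FPKM, 0.10 with median-ratio scaling, 0.09 with quantile normalization, and at 0.00, 0.01 and 0.10 when K382Q replicate 2, K382Q replicate 3 or K382R replicate 1 was left out (range −0.13 to 0.10 over the 6 libraries). With libraries left out in turn, 23 to 26 matrix genes were lower, 1 was higher and 9 to 12 were lower by more than 2-fold. That count was 13 with a pseudocount of 0.1 (*Fbln1*, *Fbn1* and *Smoc2* added), 8 with FPKM (*Has2* and *Tnc* lost) and 16 with a limit of 1.5-fold. Over all genes tested, those settings gave 603 of 15426, 226 of 13419 and 1287 of 15426 genes in the same order. With libraries left out, 4893 to 5521 of all 15097 to 15194 genes tested were lower, and 355 to 429 were lower by more than 2-fold. The count of higher genes was 2 with a pseudocount of 1, FPKM, median-ratio scaling, quantile normalization or no intensity trend, *Aspn* being the gene added. Without the trend *Tnxb* was also called and 27 were lower, beside 5410 of all 15426 genes tested.

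Replicate numbers did not pair the libraries (correlations of same-numbered deviations −0.0177, 0.0507 and 0.0223). With the replicate number as a block, 25 matrix genes were lower, *Smoc1* being lost (adjusted p = 0.082), and 10 were lower by more than 2-fold. Of all 15426 genes tested with that block, 5387 were lower and 407 were lower by more than 2-fold.

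The log2 ratios of summed TPM were −0.73 for all 40 genes, −0.65 for matricellular, −1.13 for proteoglycan, −0.78 for elastic fibre and −0.46 for nidogen and *Has2* sums. In the same order they were −0.65, −0.56, −1.04, −0.70 and −0.38 with FPKM, and −0.58, −0.50, −0.97, −0.63 and −0.31 with median-ratio scaling. Without each library in turn they ranged from −0.74 to −0.72, −0.66 to −0.64, −1.14 to −1.11, −0.80 to −0.78 and −0.47 to −0.45. In the other lists, the lower calls over all alternatives numbered 5 to 8 for elastic fibre assembly, 18 to 24 for glycosaminoglycan synthesis, 7 to 10 for core proteins, 7 to 8 for other matricellular and 4 to 6 for hyaluronan genes. Over all genes, 3153 to 5805 were lower under these alternatives, with 13419 to 29522 genes tested. Higher calls of core proteins numbered 3 with median-ratio scaling or the replicate block, and 2 otherwise. Higher calls for elastic fibre assembly numbered 0 without a filter or without the trend, 2 with a TPM of at least 1, FPKM, median-ratio scaling or quantile normalization, and 0 to 1 with a library left out. For other matricellular genes they numbered 0 to 1 with a library left out. For glycosaminoglycan synthesis they numbered 1 with FPKM or median-ratio scaling and 2 with quantile normalization. The cause of these shifts was not tested. Depth limits the lowest genes, since the coverage in reads per base was 0.216 to 1.54 for *Smoc2*, 0.622 to 2.29 for *Thbs3*, 0.758 to 3.8 for *Dcn* and 1.11 to 6.62 for *Has2*.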
